A study of Mus musculus with 3 samples.

Results

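The semaphorins, the plexins, the ephrins and the Eph receptors, 4 families of guidance molecules, were examined in RNA from vessels isolated from mouse brain. Genes were taken by symbol, as every member of these families whose symbol follows the family pattern (Sema, Plxn, Efna, Efnb, Epha or Ephb with its number), except Efnb2 and Ephb4. The pattern held 49 of the 29917 genes named in the data, that is 20 semaphorins, 9 plexins, 7 ephrins and 13 Eph receptors. The study addressed what connexin 30 (Cx30, gene Gjb6), a gap junction protein of astrocytes whose endfeet wrap brain vessels, contributes to the vasculature. 3 libraries were sequenced, 1 for each group, each from vessels of 3 mice pooled at 3 months of age. The C57BL6 WT library came from wild-type mice of the C57BL6 strain, the C57BL6-BALB/c WT library from wild-type mice of a mixed C57BL6-BALB/c background, and the Cx30-/- library from mice lacking Cx30 in all tissues. The labels give the Cx30-/- mice a C57BL6 background and the methods of the study a mixed one, so both WT libraries were used as references. No group was replicated, so that a difference between genotypes and a difference between pools of animals cannot be told apart.

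Semaphorins are secreted or membrane-bound ligands that act through plexins, and the secreted class 3 members mostly bind neuropilins as co-receptors. Ephrins are membrane-bound ligands of the Eph receptor tyrosine kinases, and signal in both directions at contacts between cells. Both systems were first known for steering growing axons, and both also pattern vessels: Sema3e acts on endothelial plexin D1, Sema3g is a marker of arterial endothelium, and neurons and glia express many of the other members.

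The promoters of 4 members are given to show the sequence at their starts, from RefSeq on GRCm38.p6, 250 bases before to 50 bases after the annotated start. Sema3g and Plxnd1 are among the vascular members, Efna1 was the most abundant of the 7 ephrins in Cx30-/-, and Ephb6 was the most abundant of the 4 EphB receptors and lower in Cx30-/-. Capitals mark the letters CCGGAA, the core bound by ETS factors, and GGGCGG, the GC box, on either strand.
Sema3g promoter (chr14:31217623-31217922, plus strand): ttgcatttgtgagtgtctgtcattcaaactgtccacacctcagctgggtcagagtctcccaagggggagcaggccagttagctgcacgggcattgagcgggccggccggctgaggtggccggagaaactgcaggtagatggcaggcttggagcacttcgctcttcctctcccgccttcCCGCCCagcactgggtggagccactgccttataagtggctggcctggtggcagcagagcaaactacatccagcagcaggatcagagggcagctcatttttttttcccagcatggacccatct
Plxnd1 promoter (chr6:115994956-115995255, minus strand): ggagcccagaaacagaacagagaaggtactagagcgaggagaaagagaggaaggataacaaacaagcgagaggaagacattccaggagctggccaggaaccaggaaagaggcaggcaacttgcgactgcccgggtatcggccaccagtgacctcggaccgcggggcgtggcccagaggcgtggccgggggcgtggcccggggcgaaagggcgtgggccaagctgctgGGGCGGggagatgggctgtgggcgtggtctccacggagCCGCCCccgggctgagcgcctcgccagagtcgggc
Efna1 promoter (chr3:89279596-89279895, minus strand): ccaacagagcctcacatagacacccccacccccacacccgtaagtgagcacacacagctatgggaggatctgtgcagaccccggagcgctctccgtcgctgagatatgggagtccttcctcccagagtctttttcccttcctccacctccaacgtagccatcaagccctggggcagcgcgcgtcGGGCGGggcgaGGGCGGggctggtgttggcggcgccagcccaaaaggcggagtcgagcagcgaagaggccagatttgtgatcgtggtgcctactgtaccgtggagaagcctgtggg
Ephb6 promoter (chr6:41605261-41605560, plus strand): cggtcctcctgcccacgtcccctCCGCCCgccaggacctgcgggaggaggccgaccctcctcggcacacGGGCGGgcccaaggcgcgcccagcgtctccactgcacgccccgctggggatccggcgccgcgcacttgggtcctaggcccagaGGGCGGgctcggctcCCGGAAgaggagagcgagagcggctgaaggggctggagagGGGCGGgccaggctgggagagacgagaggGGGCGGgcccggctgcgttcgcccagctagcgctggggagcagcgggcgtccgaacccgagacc

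In these promoters the GC box was found 1 time at Sema3g, 2 times at Plxnd1, 2 times at Efna1 and 5 times at Ephb6, and the ETS core 1 time, at Ephb6. A promoter was matched by symbol for 43 of the 49 genes. For 34 of these its start lay within 100 bases of the start of the counted transcript, and the others describe another start. The GC box was present in 31 of these 43 (72.1%) and in 35.9% of all 32544 promoters, and the median number of CG dinucleotides was 22 against 7. The ETS core was held by 5 of 43 (11.6%) and by 15.0% of all promoters. The letters ACAAT, bound by SOX factors, were in 9 of 43 (20.9%) and 30.8%. The letters TATAAA were in 0 of 43 and in 13.6% of all promoters. All motifs were searched on both strands, and neighbouring matches could share bases. These matches describe letters in a window.

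The deposited counts, summed over all transcripts, ranged from 50375426 to 60725557 for each library, and a read can count for several transcripts. The 1 transcript used for each of the 49 genes gave 77894 to 95854 counts in sum. Gjb6 had normalized counts of 2531 in C57BL6 WT, 2426 in C57BL6-BALB/c WT and 101 in Cx30-/-, a log2 ratio of -4.65 and -4.59 against the WT libraries, which fits the labels. The endothelial list (8 genes, among them Cldn5 and Cdh5) had a summed level of 40188, 22164 and 45648 normalized counts per kb in C57BL6 WT, C57BL6-BALB/c WT and Cx30-/-. The neuron list (8 genes, among them Snap25 and Gad1) had 12654, 16212 and 9104. All 8 endothelial markers were above both WT libraries in Cx30-/- and all 8 neuron markers below both, and no marker was at 0. The C57BL6-BALB/c WT library thus held the lowest endothelial and the highest neuronal summed level. Among the neuron markers, Syt1 and Tubb3 were instead highest in C57BL6 WT. They had normalized counts of 12383 and 588 there, and 12286 and 480 in C57BL6-BALB/c WT. Every result against the C57BL6-BALB/c WT library is given beside that against C57BL6 WT. In bulk RNA, fewer cells of a type and less RNA per cell cannot be told apart.

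Levels are compared between genes as normalized counts per kb of transcript, and the means of the 49 genes over the 3 libraries ran from 19.3 to 2906. Sema7a, a membrane-anchored semaphorin that signals through integrin and plexin C1, was the most abundant, at 3042, 2594 and 3082 normalized counts per kb in C57BL6 WT, C57BL6-BALB/c WT and Cx30-/-, and stood at percentile 98.5 of the 14979 genes past 50 normalized counts in any library. Sema3g followed at 1616, 1287 and 1984 per kb, percentile 96.1. Both were above all other members. Plxnb2, a receptor of class 4 semaphorins, led the plexins at 806, 775 and 876, and Plxnd1 came next at 716, 676 and 735. Among the ephrins, Efna1, a GPI-anchored ephrin of endothelium, had 653, 448 and 897, and Efnb3, a transmembrane ephrin of neurons, 816, 700.4 and 468. Efnb3 was thus the higher in both WT libraries and Efna1 in Cx30-/-, and their means of 666 and 661 were close. Among the receptors Epha10, a kinase-inactive receptor, had 705, 984 and 491 and Ephb6, which also lacks kinase activity, 806, 949 and 508. The scarcest members of the classes, by mean level per kb, were Sema3d (28.1), Sema5a (97.3), Plxnc1 (54.6), Efna4 (35.4), Epha6 (19.3) and Ephb2 (38.6).

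**Figure D1:**
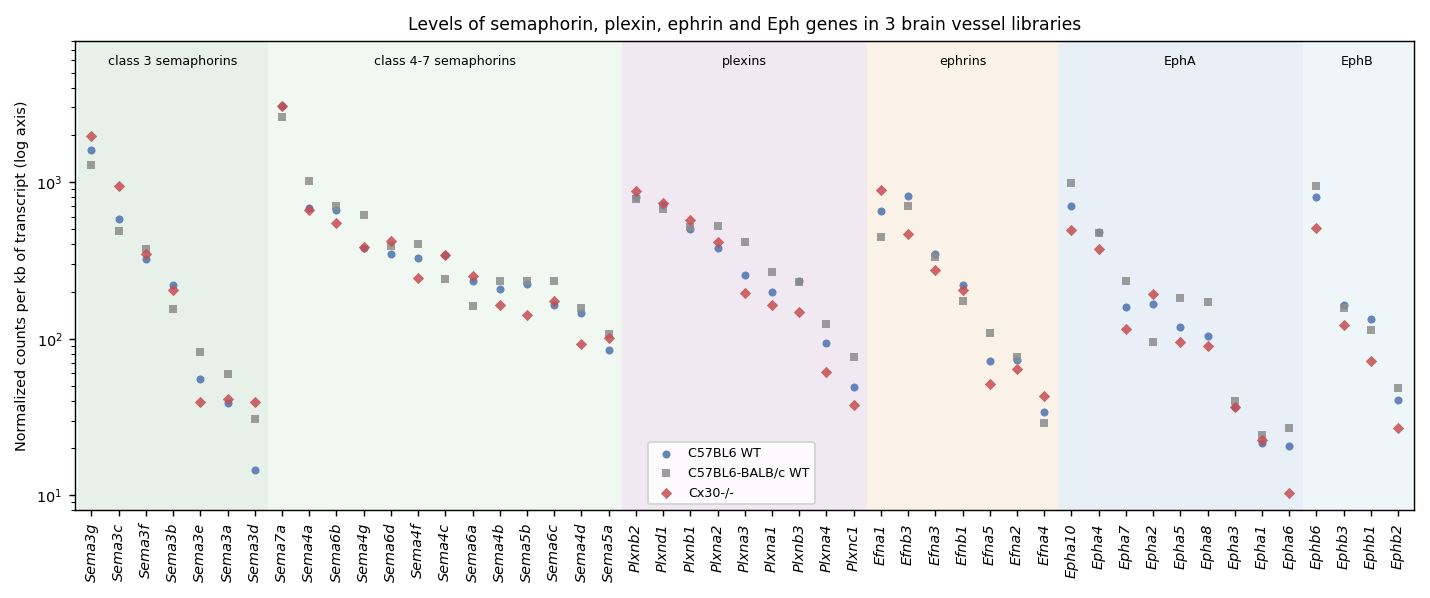
Normalized counts per kb of transcript (log axis) of the 49 genes, ordered by class and by mean level, with 1 point for each library (circle C57BL6 WT, square C57BL6-BALB/c WT, diamond Cx30-/-; no error bar, as each group is 1 library). Sema7a and Sema3g lie at the top, and the 4 EphB receptors of the set (Ephb4 is left out) have the diamond lowest.

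The classes took different shares of the summed level per kb of the 49 genes. Class 3 semaphorins took 15.7% in C57BL6 WT, 13.4% in C57BL6-BALB/c WT and 20.5% in Cx30-/-. The Eph receptors took 16.3%, 18.9% and 12.3%. The class 3 share was thus highest, and the Eph receptor share lowest, in Cx30-/-. Shares of 1 sum are bound to move against each other. The summed class 3 level was 2849, 2477 and 3596 normalized counts per kb in C57BL6 WT, C57BL6-BALB/c WT and Cx30-/-. Most of it came from Sema3g (1616, 1287 and 1984) and Sema3c (581, 487 and 939). Of the 7 class 3 genes, 3 were highest in Cx30-/-, 1 was lowest and 3 lay between. Semaphorins of classes 4 to 7 (37.8%, 38.3% and 37.6%), plexins (17.9%, 19.4% and 18.3%) and ephrins (12.2%, 10.1% and 11.4%) spread less in proportion.

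To ask how the genes differed by genotype, the Cx30-/- library was set against each WT library. A gene was called at a ratio of at least 2, a log2 ratio of 1. At least 1 of the libraries compared had to hold 50 or more normalized counts. All 49 genes passed this minimum in every comparison. Epha6 did so through the WT libraries alone, as it had 40.9 normalized counts in Cx30-/-. Shares of all genes by ratio or by order of the libraries are over the genes past the minimum, 14688 to 14891 by comparison. Against C57BL6 WT, 1 of 49 was called higher, Sema3d, where 1.42% of all genes were, and 0 lower, where 1.26% were. Against C57BL6-BALB/c WT, 2 were called higher, Efna1 and Epha2 (background 3.96%), and 8 lower, Sema3e, Plxna3, Plxna4, Plxnc1, Efna5, Epha6, Epha7 and Epha10 (16.3% of the 49 against a background of 4.73%). Under a stricter minimum, 50 normalized counts in every library compared, 2 were called higher and 7 lower there. Called in both comparisons were 0 higher (background 0.742%) and 0 lower (0.681%). At 1.5-fold in both, 1 was higher, Sema3c (3.23%), and 8 were lower, Sema4d, Sema5b, Plxna4, Plxnb3, Epha6, Ephb1, Ephb2 and Ephb6 (16.3% against 4.28%). Scaled by total count, the calls against C57BL6-BALB/c WT were 3 higher and 1 lower, and that scaling moved the median of all genes from 0.00 to 0.13 on the log2 scale. The share of all genes called under that scaling, or under the stricter minimum, is not given.

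The WT libraries themselves differed. In C57BL6-BALB/c WT against C57BL6 WT, 1 gene was called higher, Sema3d (background 1.41%), and 0 lower (2.02%). The median log2 ratio of the 49 genes was 0.16 in that comparison, against 0.00 for all genes, and 31 of the 49 were higher. It was -0.20 for Cx30-/- against C57BL6 WT, with 29 of 49 lower, and -0.37 against C57BL6-BALB/c WT, with 34 of 49 lower, where all genes had 0.00 in both. The Cx30-/- library stood below both WT libraries for 26 of 49 genes (53.1%), where 36.6% of all genes did, and above both for 12 (24.5%), where 37.1% did. The remaining 11 lay between. As the Cx30-/- library enters both comparisons, these are not independent of each other.

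**Figure D2:**
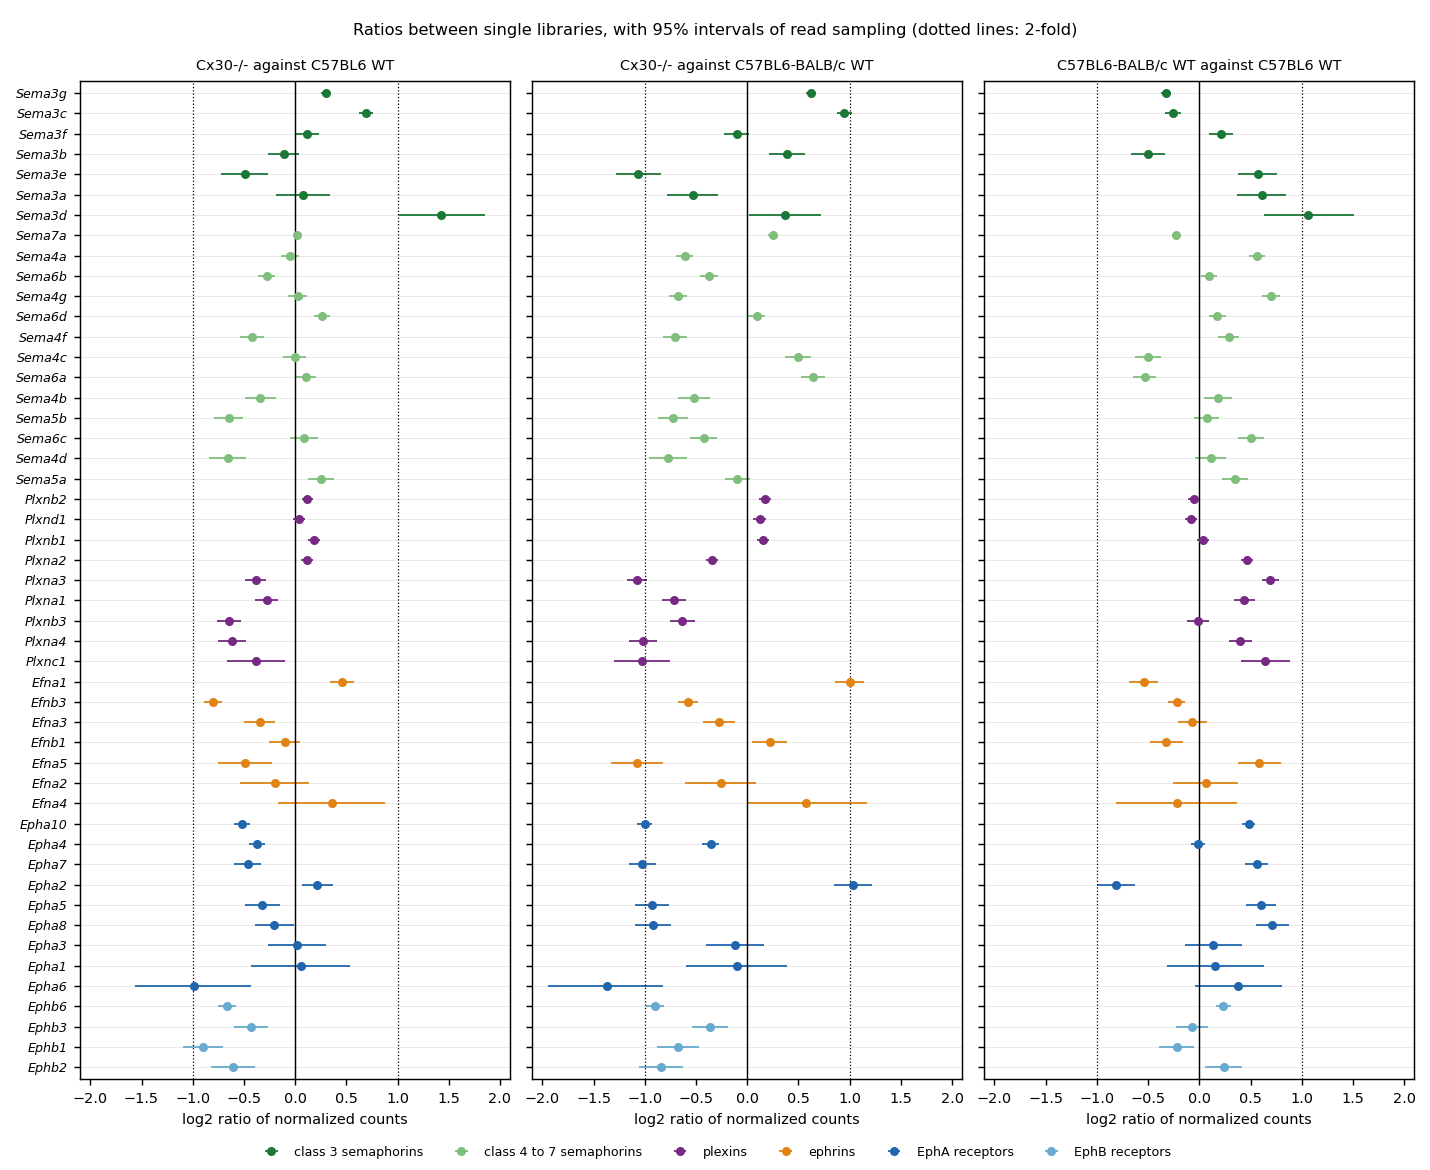
Log2 ratios of normalized counts for the 49 genes in the 3 comparisons of single libraries, colored by class, with bars giving 95% intervals that cover the sampling of reads only and dotted lines at 2-fold. The 4 EphB receptors of the set (without Ephb4) lie left of 0 in both Cx30-/- panels, and Sema3g and Sema3c lie right of it.

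Among the class 3 semaphorins, which are secreted, 3 of 7 were highest in Cx30-/-, 1 was lowest and 3 lay between. Sema3g (chr14:31217860-31230352, plus strand) had normalized counts of 7332 in C57BL6 WT, 5840.2 in C57BL6-BALB/c WT and 9004 in Cx30-/-. Its log2 ratio (95% interval of read sampling) to C57BL6 WT was 0.30 (0.25 to 0.34), and to C57BL6-BALB/c WT 0.62 (0.58 to 0.67); pairs of ratios below keep this order. This gene lies on the same chromosome as Gjb6, 25.9 Mb away. Sema3c (chr5:17574281-17730268, plus strand), which attracts or repels axons and acts on endothelium through neuropilins, had normalized counts of 2879.8 in C57BL6 WT, 2415 in C57BL6-BALB/c WT and 4655 in Cx30-/-. Its log2 ratio was 0.69 (0.63 to 0.76) and 0.95 (0.87 to 1.02), both past 1.5-fold. For Sema3c the WT libraries differed less from each other, by -0.25 (-0.33 to -0.18), than Cx30-/- did from either. For Sema3g they differed by -0.33 (-0.38 to -0.28), as much as Cx30-/- did from C57BL6 WT. Sema3d (chr5:12383385-12588948, plus strand), a repellent linked to vessel and heart patterning, had only 71, 120 and 159 raw counts in C57BL6 WT, C57BL6-BALB/c WT and Cx30-/-, or 62.0, 129.6 and 167 normalized. The ratios were 1.43 (1.02 to 1.85) and 0.36 (0.01 to 0.72), and the WT libraries differed by 1.06 (0.63 to 1.51). The C57BL6 WT library was thus the one that stood apart for Sema3d. Sema3e, the ligand of plexin D1, had normalized counts of 376 in C57BL6 WT, 558 in C57BL6-BALB/c WT and 268 in Cx30-/-, and ratios of -0.49 (-0.72 to -0.27) and -1.06 (-1.28 to -0.84). Sema3a, Sema3b and Sema3f lay between the WT libraries. The arterial endothelial list had a summed level of 4894, 2804 and 5033 normalized counts per kb in C57BL6 WT, C57BL6-BALB/c WT and Cx30-/-. This is the order of libraries of Sema3g, and the endothelial, venous endothelial, pericyte, fibroblast and red cell lists had it too. Of the 6 arterial markers 5 were above both WT libraries in Cx30-/-. Gkn3 was lower than in C57BL6 WT, by -0.18, and Gja5 was lowest in C57BL6 WT. The part of these lists in the ratios was not tested.

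The co-receptors of class 3 semaphorins are not members but bear on them. Nrp1 had normalized counts of 1908 in C57BL6 WT, 1479 in C57BL6-BALB/c WT and 2089.7 in Cx30-/-, and Nrp2 of 2169 in C57BL6 WT, 1796 in C57BL6-BALB/c WT and 2610.0 in Cx30-/-. Both were highest in Cx30-/- and lowest in C57BL6-BALB/c WT, and neither reached 2-fold in any comparison, with log2 ratios of 0.13 and 0.50 for Nrp1 and 0.27 and 0.54 for Nrp2.

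The 13 semaphorins of classes 4 to 7 are transmembrane or anchored to the membrane. In Cx30-/-, 6 were lowest, 3 highest and 4 between, and 0 reached 2-fold in any comparison. Sema7a had normalized counts of 10026 in C57BL6 WT, 8549 in C57BL6-BALB/c WT and 10158 in Cx30-/-, with ratios of 0.02 (-0.02 to 0.06) and 0.25 (0.21 to 0.29), and the first interval included 0. Sema4d (chr13:51685529-51793747, minus strand), a ligand of plexin B1 known in oligodendrocytes and immune cells, had 653 in C57BL6 WT, 705 in C57BL6-BALB/c WT and 413 in Cx30-/-, and ratios of -0.66 (-0.84 to -0.48) and -0.77 (-0.96 to -0.59). Sema5b, an axon repellent, had 1041 in C57BL6 WT, 1093 in C57BL6-BALB/c WT and 663 in Cx30-/-, and ratios of -0.65 (-0.79 to -0.51) and -0.72 (-0.87 to -0.58). For both genes the WT libraries lay close together and Cx30-/- below them. Sema5a, the scarcest of these 13 by mean level per kb though not by count, had normalized counts of 911 in C57BL6 WT, 1160.0 in C57BL6-BALB/c WT and 1085 in Cx30-/-. It lay between the WT libraries. The oligodendrocyte list, at 20206, 17110 and 16142 normalized counts per kb, and that of oligodendrocyte precursors, at 1120, 960 and 707, were also lowest in Cx30-/-. Of the 6 oligodendrocyte markers 4 were below both WT libraries, while Mbp and Mobp exceeded C57BL6-BALB/c WT by 0.07 and 0.16. Of the 4 precursor markers 3 were below both. The neuron list, at 12654, 16212 and 9104, and the astrocyte list, at 7265, 6740 and 5928, were lowest in Cx30-/- too. Of these lists, only the neuron list had the order of libraries of Sema4d. The part of these lists in the ratios of Sema4d was not tested.

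Of the 9 plexins, the semaphorin receptors, 5 were lowest in Cx30-/-, 3 were highest and 1 lay between. Plxnd1 (chr6:115954811-115995005, minus strand), an endothelial receptor, had normalized counts of 4944 in C57BL6 WT, 4673 in C57BL6-BALB/c WT and 5079.5 in Cx30-/-. Its ratios were 0.04 (-0.02 to 0.09) and 0.12 (0.06 to 0.18). Plxnb2 had 5141 in C57BL6 WT, 4944 in C57BL6-BALB/c WT and 5586 in Cx30-/-, with ratios of 0.12 (0.07 to 0.17) and 0.18 (0.12 to 0.23). These abundant receptors thus differed little between libraries. Plxna4 (chr6:32144268-32588192, minus strand), a neuronal receptor of class 3 and class 6 semaphorins, had 1049 in C57BL6 WT, 1384 in C57BL6-BALB/c WT and 684 in Cx30-/-, and ratios of -0.62 (-0.76 to -0.48) and -1.02 (-1.15 to -0.88). Plxna3, which pairs with neuropilins, had 1769 in C57BL6 WT, 2858 in C57BL6-BALB/c WT and 1354 in Cx30-/-, and ratios of -0.39 (-0.49 to -0.28) and -1.08 (-1.17 to -0.98). For these 2 genes the C57BL6-BALB/c WT library was the highest, and it exceeded C57BL6 WT by 0.40 (0.29 to 0.51) and 0.69 (0.61 to 0.78). Plxnc1, the plexin of Sema7a, had 232 in C57BL6 WT, 363 in C57BL6-BALB/c WT and 178 in Cx30-/-, and ratios of -0.38 (-0.67 to -0.10) and -1.03 (-1.30 to -0.75). Plxnb3, a receptor of Sema5a, had 1449 in C57BL6 WT, 1437 in C57BL6-BALB/c WT and 926 in Cx30-/-, and ratios of -0.65 (-0.76 to -0.53) and -0.63 (-0.76 to -0.51), from a transcript annotated as a retained intron, as is the one counted for Sema6c. The medians over the 9 plexins were -0.28 and -0.63. The neuron list had the same order of libraries as Plxna3 and Plxna4, and its part in their ratios was not tested.

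Among the 7 ephrins, 4 were lowest in Cx30-/-, 2 highest and 1 between. Efna1 (chr3:89271733-89281142, minus strand) had normalized counts of 966 in C57BL6 WT, 663 in C57BL6-BALB/c WT and 1327 in Cx30-/-. Its ratios were 0.46 (0.34 to 0.58) and 1.00 (0.86 to 1.14), the latter at the threshold. Efna5, a ligand of EphA receptors that guides axons, had 289.9 in C57BL6 WT, 435 in C57BL6-BALB/c WT and 207 in Cx30-/-, and ratios of -0.49 (-0.75 to -0.23) and -1.07 (-1.33 to -0.83). The order of the libraries was thus opposite for these ephrins. Efnb3, the most abundant of the 7 in both WT libraries, had 2597 in C57BL6 WT, 2229 in C57BL6-BALB/c WT and 1489.7 in Cx30-/-. Its ratios were -0.80 (-0.89 to -0.71) and -0.58 (-0.68 to -0.48), so that it was lowest in Cx30-/-. Efna4, the scarcest ephrin, had 54.1 in C57BL6 WT, 46.4 in C57BL6-BALB/c WT and 69.2 in Cx30-/-, and ratios of 0.35 (-0.17 to 0.88) and of 0.58 with intervals wider than 1 log2 unit. In 10.5% of its counted length Efna4 overlapped exons of another gene. The pair left out by rule, Efnb2 of arteries and Ephb4 of veins, had normalized counts of 2003, 1785 and 2257 and of 2352, 2106 and 3097 in C57BL6 WT, C57BL6-BALB/c WT and Cx30-/-.

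Of the 9 EphA receptors, 6 were lowest in Cx30-/-, 1 was highest and 2 lay between, and the medians were -0.32 and -0.92. Epha2 (chr4:141301240-141329384, plus strand), a receptor of Efna1 found on endothelium and epithelium, had 651 in C57BL6 WT, 370.5 in C57BL6-BALB/c WT and 757 in Cx30-/-. With ratios of 0.22 (0.07 to 0.37) and 1.03 (0.84 to 1.22), it was the single receptor of the 13 Eph genes above both WT libraries. Epha7, a receptor for Efna5 in the developing brain, had 1071 in C57BL6 WT, 1580.2 in C57BL6-BALB/c WT and 777 in Cx30-/-, and ratios of -0.46 (-0.60 to -0.33) and -1.02 (-1.15 to -0.89). Epha10 had 3285 in C57BL6 WT, 4584 in C57BL6-BALB/c WT and 2289 in Cx30-/-. Its log2 ratio to C57BL6 WT was -0.52 (-0.60 to -0.44), and it stood at the threshold to C57BL6-BALB/c WT, with a linear ratio of 0.499. Epha7 and Epha10 shared the order of the libraries, with C57BL6-BALB/c WT highest and Cx30-/- lowest. Epha6 (chr16:59653483-60605531, minus strand), a neuronal receptor, had 93, 98 and 39 raw counts, or 81.2, 106 and 40.9 normalized, and ratios of -0.99 (-1.57 to -0.44) and -1.37 (-1.95 to -0.82). Reads covered 59.7%, 58.9% and 31.9% of its transcript in C57BL6 WT, C57BL6-BALB/c WT and Cx30-/-. The intervals of Epha6 were the widest of the called genes. Exons of a gene on the opposite strand overlapped 2.72% of its counted length and 1.70% of that of Epha10, and reads of the strands were not told apart.

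The 4 EphB receptors of the set, Ephb1, Ephb2, Ephb3 and Ephb6, were lowest in Cx30-/-. Ephb4, left out by rule, was highest there, with log2 ratios of 0.40 and 0.56. The medians of the 4 were -0.64 against C57BL6 WT and -0.76 against C57BL6-BALB/c WT. Ephb6 (chr6:41605482-41620509, plus strand), shown above with its promoter, had 2658 in C57BL6 WT, 3129 in C57BL6-BALB/c WT and 1674 in Cx30-/-, and ratios of -0.67 (-0.76 to -0.58) and -0.90 (-0.99 to -0.81). Ephb1 (chr9:101922128-102354693, minus strand), which binds B-class ephrins at synapses and growth cones, had 623 in C57BL6 WT, 534 in C57BL6-BALB/c WT and 335 in Cx30-/-, and ratios of -0.90 (-1.09 to -0.70) and -0.67 (-0.88 to -0.47). Ephb2, a receptor with synaptic roles, had 445 in C57BL6 WT, 525 in C57BL6-BALB/c WT and 293 in Cx30-/-, and ratios of -0.61 (-0.82 to -0.39) and -0.84 (-1.06 to -0.63). For Ephb1, 3.26% of the counted length overlapped a gene on the opposite strand. Each of these 3 receptors was at least 1.5-fold lower in both comparisons, whereas the WT libraries differed by 0.24, -0.22 and 0.24. The remaining member, Ephb3, had ratios of -0.43 (-0.60 to -0.27) and -0.36 (-0.54 to -0.19). The 8 neuron markers were also lower in both comparisons, with medians of -0.53 and -0.84, and the 8 endothelial markers higher, with 0.16 and 0.87. The part of these cell types in the ratios of the receptors was not tested.

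**Figure D3:**
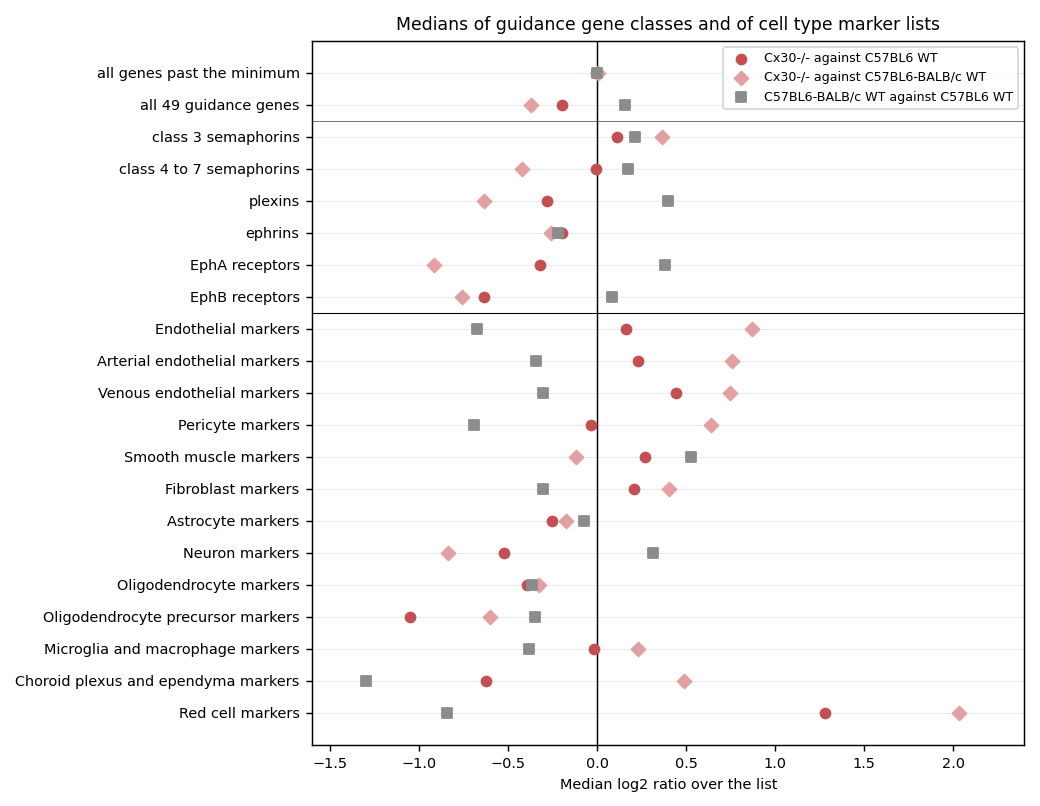
Median log2 ratio (horizontal axis) of all genes past the minimum, of the 49 guidance genes, of their 6 classes and of the cell type marker lists, with 1 symbol for each comparison of single libraries. EphA and EphB receptors of the set (without Ephb4) lie at -0.32 to -0.92 in the Cx30-/- comparisons, the neuron list at -0.53 and -0.84, and the endothelial list at 0.16 and 0.87.

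Genes that neighbour each other did not always share the order of the libraries. Efna1, Efna3 and Efna4 lie within chr3:89271733-89338028 of GRCm38. Of these, Efna1 and Efna4 were highest in Cx30-/- and Efna3 lowest, with ratios of -0.35 (-0.50 to -0.20) and -0.28 (-0.44 to -0.12). A shorter transcript of Efna3 went the other way, with 0.26 and 0.03. A gene on the opposite strand overlapped 14.6% of the counted Efna3 length. For Efna4 the interval against C57BL6 WT, -0.17 to 0.88, included 0. Sema3d, Sema3a, Sema3e and Sema3c follow each other on chromosome 5, from 12383385 to 17730268. Of these, Sema3d and Sema3c were highest in Cx30-/-, Sema3a between and Sema3e lowest.

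The fit that treats both WT libraries as 1 group is the only one with a spread to test against, and that spread comes from libraries of unlike background. By edgeR's quasi-likelihood test with Benjamini-Hochberg adjustment over 17576 genes, 0 of the 49 passed an adjusted p of 0.05, where 0.0512% of all genes (9) did. The smallest adjusted p of the 49 was 0.379, for Plxna4. At an unadjusted p under 0.05 there were 16 (32.7%), where 8.69% of all genes were, of which 14 were lower and 2, Sema3c and Efna1, higher. DESeq2 called 0 of the 48 members with an adjusted p and 7 of 14193 genes. It gave 9 of the 49 (18.4%) at an unadjusted p under 0.05, where 3.77% of all genes were.

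Other genes of guidance pathways were counted from a list of co-receptors, signaling proteins of plexins and Eph receptors, Slit and Robo, netrins and their receptors and repulsive guidance molecules, of which 62 were found. Against C57BL6 WT 0 of 61 past the minimum were called in either direction (background 1.42% higher and 1.26% lower), as in the comparison of the WT libraries (0 of 62). Against C57BL6-BALB/c WT 0 of 62 were called higher (background 3.96%) and 8 lower (background 4.73%). The medians were -0.03 and -0.24 for Cx30-/- against the WT libraries. The 8 included the Slit1 ligand and its receptor Robo2 (1161, 1901 and 653 and 882, 1157 and 543 normalized counts in C57BL6 WT, C57BL6-BALB/c WT and Cx30-/-), the netrin receptors Dcc, Unc5a and Unc5c, and the plexin signaling genes Mical2, Dpysl4 and Dpysl5, all named here after their values were seen. As for the 49 genes, calls lower in Cx30-/- were made against the C57BL6-BALB/c WT library.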

How the data were processed

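Isolated brain vessels of 3 mice (males, per the methods) were pooled for each of 3 libraries (1 for each group). PolyA RNA was sequenced without strand information, in single reads of 50 bases; the submitters' processing notes name CASAVA 1.8.2, Bowtie and mm10. The authors removed reads that aligned more than once and counted every overlap with exons of a transcript. The deposited counts are raw whole numbers for 82813 Ensembl transcripts, and a deposited fraction column (count divided by 1 total for each library) was not used. Positions in the files did not suit the named build, so coordinates were taken from GENCODE M21 (GRCm38) by transcript identifier; 83.8% of rows were named and held 83.4 to 84.1% of counts, and the others were left out.

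For each of 29917 genes the transcript with the largest total count was used. A read can be counted for several transcripts and, without strand, for an antisense gene; 11 of the 49 counted transcripts carry exons of other genes, over at most 14.7% of their length. Size factors by the median of ratios over the 3 libraries scaled the counts, which were divided by transcript length to compare genes. Ratios carry exact conditional binomial 95% intervals (Clopper-Pearson), which cover counting error only, since reads have no molecular identifiers. The quasi-likelihood test was edgeR 4.0.16 in R 4.3.3, tested on simulated data first, and DESeq2 1.42.0 an alternative. Named genes were Sema3g and Plxnd1, those called in any comparison, and those at least 1.5-fold the same way in both Cx30-/- comparisons. Also named were the most and least abundant of each class, Nrp1, Nrp2, Gjb6, and list genes called in both comparisons. Efnb3, Efna3 and Ephb3 were named after their values were seen. Further genes outside this rule, such as Plxna2, Epha5, Epha1, Sema3a and single list markers, were named as well. The members and lists were chosen with earlier results of these data known. Other scalings, count minimums, pseudocounts, transcript choices, folds and tests were tried.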

Additional observations from a re-analysis of the deposited data

How the results depend on the processing

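With 1 library for each group, leaving out a replicate was possible only as the comparison with each WT library alone, and no paired analysis was possible because each group is 1 library and nothing in the labels ties one library to another. At 1.5-fold in place of 2-fold, 11 of the 49 genes were called against C57BL6 WT (2 higher), 25 against C57BL6-BALB/c WT (5 higher), 9 between the WT libraries (8 higher), and 9 in both Cx30-/- comparisons (1 higher). The share of all genes at 1.5-fold is given only for both Cx30-/- comparisons together, 3.23% higher and 4.28% lower. The other counts of calls in this paragraph have no such share beside them, so they say nothing particular about the 49 genes. Scaled by total deposited count, 4 were called against C57BL6-BALB/c WT (3 higher), 0 between the WT libraries, and the median of the 49 in the WT comparison was 0.0331 in place of 0.16; that scaling places the median of all genes at 0.13 against C57BL6-BALB/c WT and -0.13 between the WT libraries. It alone moved single ratios beyond read sampling widely, in 48 of 147, and summing all transcripts of a gene moved 4. Calls against C57BL6-BALB/c WT ranged from 4 to 11 over 7 alternatives other than the fold. Genes above and below both WT libraries, recounted under alternatives chosen after the data were seen, numbered 11 to 17 and 25 to 26. The edgeR test called 0 under each scaling, filter and transcript choice tried, as did DESeq2, and no called ratio changed sign. Counts under 100 in at least 1 library limit Sema3d, Epha6, Epha1 and Efna4.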

Other observations

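Where a gene has several annotated transcripts, the choice of transcript shifted some ratios. For Plxnb2 the log2 ratio of Cx30-/- against C57BL6 WT ran from -0.13 to 0.49 over its transcripts past the minimum, and for Plxna2 from 0.05 to 0.93. For Epha5, which was under 2-fold as counted (-0.93 against C57BL6-BALB/c WT), its transcripts ran from -1.86 to -0.92. For Epha10 they ran from -1.57 to -0.86.

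Of the marker lists, Olig2, a factor of the oligodendrocyte lineage, was lower in both comparisons, with normalized counts of 414 in C57BL6 WT, 348 in C57BL6-BALB/c WT and 157 in Cx30-/- and log2 ratios of -1.40 and -1.14. The red cell genes Hba-a1, Hbb-bs and Alas2 were at least 2-fold higher in both, and the summed level of the 3 was 7713, 4559 and 18658 normalized counts per kb in C57BL6 WT, C57BL6-BALB/c WT and Cx30-/-.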
